A study of Homo sapiens with 4 samples.

Results

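Metallothioneins are small cytosolic proteins that bind zinc, copper and cadmium through clusters of cysteine. The genes followed here are 7 of the human metallothionein genes, MT1A, MT1E, MT1F, MT1G, MT1M, MT1X and MT2A, and MTF1, which encodes the zinc-sensing transcription factor that switches them on. These 8 genes were chosen by symbol from the 19729 genes listed, matched to Ensembl identifiers through GENCODE v29, and are unrelated to the mitochondrial genes whose symbols also begin with MT. All 8 were found.

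RNA was sequenced from HT-29 cells, a human line of colorectal cancer that is microsatellite stable, BRAF-mutant and APC-mutant. Both conditions carry the APC mutation, which leaves a truncated APC protein that the APC shRNA is meant to deplete. The cells had been stably transduced with a lentivirus that expresses, on addition of doxycycline (DOX), either the control NonS shRNA, which is non-silencing, or the APC shRNA, and were used a few passages later. Both conditions received 500 ng/ml DOX for 72 h before RNA isolation. The experiment was done in biological duplicate, replicates I and II, which gave 2 NonS and 2 APC shRNA libraries. It asks which transcripts depend on the truncated APC that these cells retain. Each condition is a single transduced line, so any other difference between the lines cannot be told apart from APC silencing. In bulk RNA, fewer cells that express a gene and less of its RNA per cell cannot be told apart either.

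In the cell, metallothioneins hold much of the exchangeable zinc, buffer copper and take up cadmium, and their thiols react with oxidants. When free zinc rises, MTF1 binds metal response elements in front of the metallothionein genes and transcription increases. Glucocorticoids also induce several of these genes, and in the colon metallothioneins are made by the epithelium, often at lower levels in carcinomas than in normal mucosa.

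The authors assigned reads to the exons of each gene and deposited 1 whole number per gene and library, of unstated scale. It behaves as a score already scaled by transcript length and library, with replicates of low genes closer together than read counts would be (their variance was 0.484 of the Poisson value for NonS and 0.363 of it for APC shRNA), so the number of reads behind a value is unknown and no count model was used. The values summed to between 398338 and 413595 per library. The targeted gene APC was listed at 3 in NonS I and at 0 in NonS II and both APC shRNA libraries, too low to check the silencing on this score. The study itself reported that the shRNA silenced APC mRNA and protein in HT-29 cells. Defining markers of the labelled cell type were present. Of 9 markers of colon epithelium, 7 passed the filter on low values and 0 were called between conditions, while 5 of 5 fibroblast and 3 of 3 endothelial markers were listed at 0. Of the 4 leukocyte markers, PTPRC and CD3E were at 0, and CD68 and CD14 were at no more than 6 in any library. CDX1 and CDX2, intestinal transcription factors, were listed at 2, 2, 0, 0 and at 0, 0, 2, 4 in NonS I, NonS II, APC shRNA I and APC shRNA II.

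The coding sequences of the 7 metallothionein members show how alike these genes are, which matters for reads of 50 bases. Each is 186 bases long with its stop codon, and 20 of its 61 codons (32.8%) encode cysteine, the residue that holds the metal. The sequences below are those of 3 members with values high enough to test, MT2A, MT1E and MT1X, and of MT1G, which shares the most sequence with MT1X among the members. They were read from the GENCODE v29 transcripts, 5′ to 3′, and capitals mark the cysteine codons TGC and TGT.
MT2A: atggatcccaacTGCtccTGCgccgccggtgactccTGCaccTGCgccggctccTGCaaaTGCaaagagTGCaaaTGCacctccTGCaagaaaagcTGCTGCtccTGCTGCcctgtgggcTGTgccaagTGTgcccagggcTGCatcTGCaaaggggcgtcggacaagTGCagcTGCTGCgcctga
MT1E: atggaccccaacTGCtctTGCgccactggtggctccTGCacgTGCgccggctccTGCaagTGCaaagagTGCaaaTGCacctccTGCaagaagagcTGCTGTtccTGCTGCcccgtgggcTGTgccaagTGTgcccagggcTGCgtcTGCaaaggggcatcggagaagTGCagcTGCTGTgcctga
MT1X: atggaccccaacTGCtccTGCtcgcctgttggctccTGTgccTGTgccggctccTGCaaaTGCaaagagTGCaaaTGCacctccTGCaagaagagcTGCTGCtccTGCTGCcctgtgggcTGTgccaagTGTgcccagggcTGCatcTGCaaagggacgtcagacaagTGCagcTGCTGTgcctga
MT1G: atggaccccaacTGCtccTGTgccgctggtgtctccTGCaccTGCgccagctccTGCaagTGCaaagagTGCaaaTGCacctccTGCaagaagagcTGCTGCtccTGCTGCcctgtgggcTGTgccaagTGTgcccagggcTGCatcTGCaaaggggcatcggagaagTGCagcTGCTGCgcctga

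All 20 cysteine codons of each member fall at the same codon positions as in MT2A, and the members differ mainly in the codons between them. Over all pairs of the 7 coding sequences, identity ran from 88.7% between MT1F and MT1X to 95.2% between MT1G and MT2A. Whole transcripts were less alike. Of the 50-base windows in the principal transcript, the share also found in another annotated gene was 45.1% for MT1X (181 of 401 windows), 20.2% for MT1G, 7.05% for MT1M, 5.76% for MT1A, 5.34% for MT1E, 4.88% for MT2A, 3.59% for MT1F and 0.896% for MTF1. For MT1X, 117 of these windows lie in AC026461.1, a transcript that overlaps it on the same strand over 321 exonic bp, and 47 lie in MT1G. The values of MT1X and MT1G are therefore the least certain of the members, since reads in these windows could be split, dropped or assigned to another gene.

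In NonS cells the metallothionein genes differed widely in level. MT1E had the highest mean at 66.0 ± 2.83 (SD, n = 2), followed by MT2A at 28 ± 2.83 and MT1A at 24.5 ± 0.707. MT1X, at 6.50 ± 0.707, and MTF1, at 5 in both libraries, came next, then MT1G at 2.50 ± 0.707, MT1F at 1 in both libraries and MT1M at 0. MT2A and MT1A are close neighbours in this order, with 26 and 30 against 25 and 24, and their gap is near the spread of MT2A. MT1X, with 6 and 7, lay just above MTF1, at 5 and 5. In APC shRNA cells the order at the top was the same, with MT1E at 79.0 ± 4.24, MT2A at 51.5 ± 13.4 and MT1A at 45.0 ± 7.07, but MT2A and MT1A overlapped. At the bottom, MT1G at 7 ± 1.41, MT1F at 6.50 ± 2.12 and MTF1 at 5.50 ± 0.707 overlapped as well. These levels compare genes on the deposited score, which appears to be per transcript length already. Which length was used is unknown. For MT1X the longest annotated transcript has 1727 bases and the principal one 450, so its place in the order is uncertain.

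**Figure D1:**
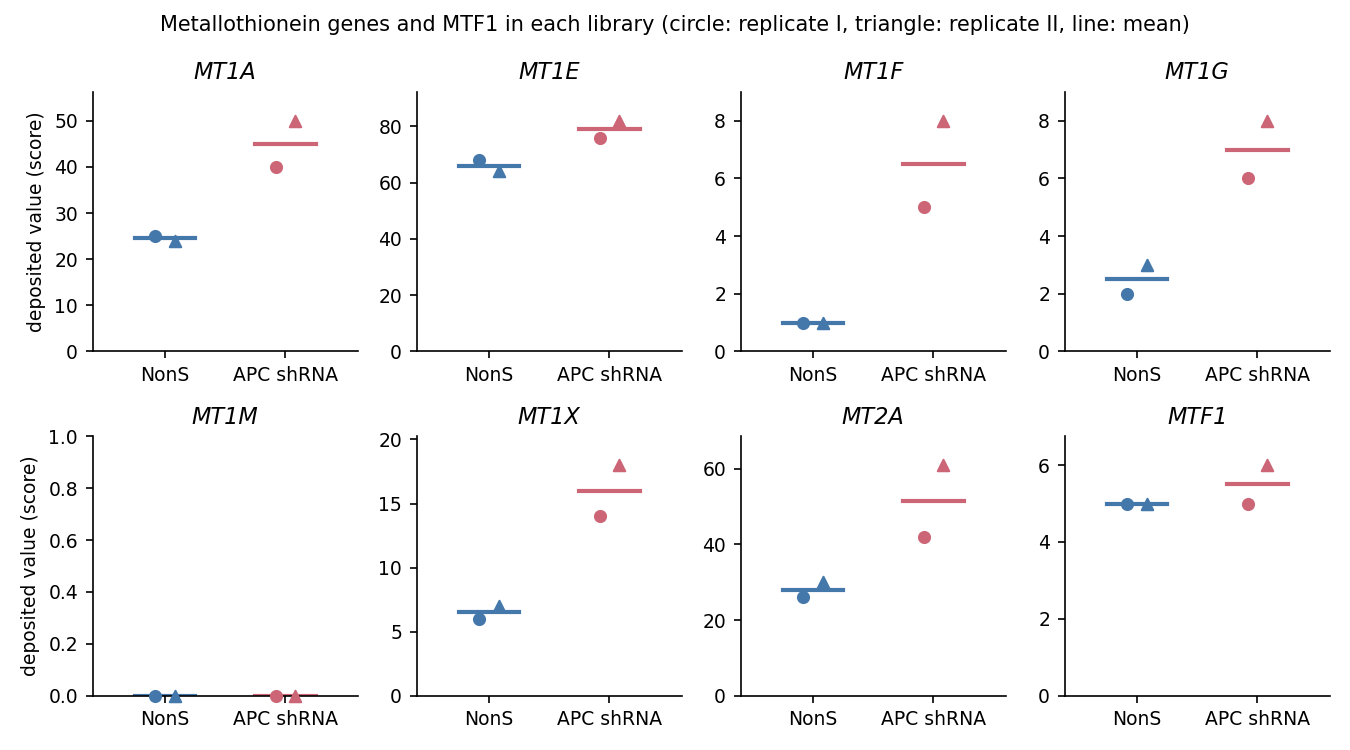
Deposited value (score, linear axis from 0) of the 8 genes in the NonS and APC shRNA libraries, with a circle for replicate I, a triangle for replicate II and a line for the mean of both. MT1A, MT1E, MT1F, MT1G, MT1X and MT2A have both APC shRNA points above both NonS points, MTF1 has one shared value of 5, and MT1M is at 0 throughout. Both APC shRNA values lay above both NonS values in 33% of all genes tested, which do not include MT1F and MT1G.

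After APC silencing, 6 of the 7 metallothionein genes were listed at higher values in each APC shRNA library than in any NonS library. That order was found in 33% of the 5376 genes tested, a set that excludes MT1F and MT1G for their low values. MT1M was at 0 in all 4 libraries. None of the 4 genes that could be tested passed the test. Summed over the 7 genes, the values came to 128 and 129 for the NonS duplicates and to 183 and 227 for APC shRNA I and II, or 0.0321%, 0.0314%, 0.0442% and 0.0550% of the library totals. The duplicates of NonS were nearly equal, and APC shRNA II was above APC shRNA I. Genes were compared on log2(value + 1) with limma, a linear model that pools the spread across genes, where the mean over the 4 libraries was at least 10, and a gene was called at a Benjamini-Hochberg adjusted p under 0.05. An exact two-sided permutation test of 2 libraries against 2 cannot give a p under 0.333, so single genes were not tested that way. MT1A, MT1E, MT1X and MT2A were tested. Of these, 0 were called higher, where 4.33% of the 5376 genes tested were (233 genes), and 0 were called lower, against 3.7% (199 genes). All 4 had an unadjusted p under 0.05 in limma, as did 1912 of all genes tested, and no gene had an adjusted p below 0.0423. The lower APC shRNA value exceeded the higher NonS value in 4 of the 4, a pattern found in 33% of all genes tested, while the opposite order, found in 27.5% of them, occurred in 0. The median difference of the 4 was 0.84 on the log2(value + 1) scale, and that of all genes tested was 0.03. MT1X entered the test only through its APC shRNA values, so its place in these counts and in the median was partly fixed by the filter. The 3 members with a mean of at least 10 in NonS alone, MT1A, MT1E and MT2A, had the same order. Their differences were 0.84, 0.26 and 0.84.

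**Figure D2:**
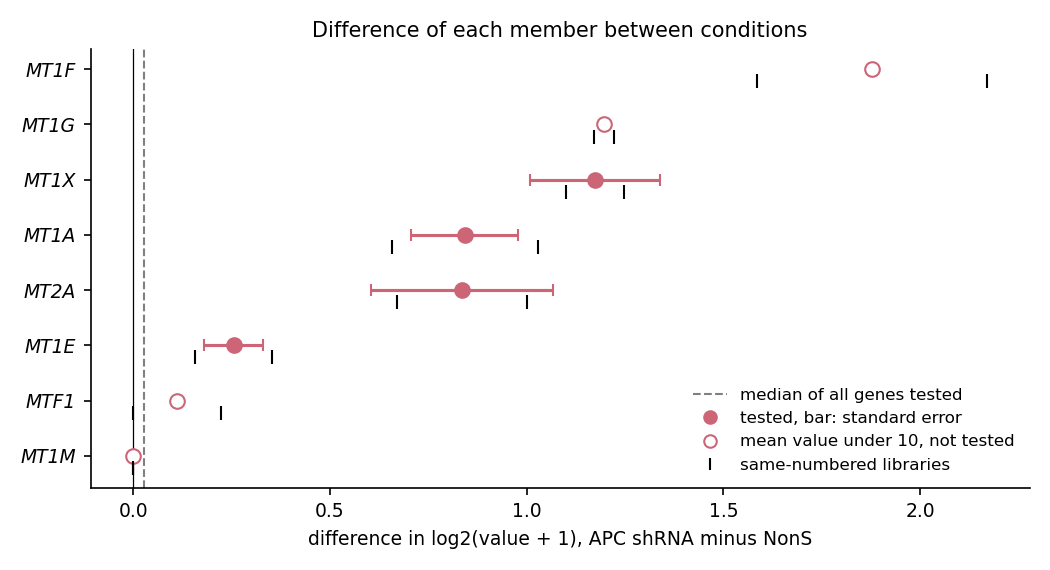
Difference in log2(value + 1), APC shRNA minus NonS, for each of the 8 genes. Filled circles with bars are the tested genes with their standard error, open circles are genes with a mean under 10, short strokes are the differences between same-numbered libraries, and the dashed line is the median of all genes tested (0.03). MT1F has the greatest difference at 1.88 and rests on values of 8 or less, and MT1E lies nearest to 0 among the tested genes at 0.26.

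MT2A (ENSG00000125148, chr16:56608199-56609497, plus strand, GRCh38), a metallothionein made in most human tissues, was listed at 26 in NonS I, 30 in NonS II, 42 in APC shRNA I and 61 in APC shRNA II. The conditions did not overlap, but the APC shRNA duplicates were 19 apart on this score, as the SD of 13.4 shows. The ratio of means was 1.84, and the log2(value + 1) difference was 0.84 (standard error 0.23, adjusted p = 0.113 in limma). Within same-numbered libraries the difference was 0.67 for replicates I and 1.00 for replicates II.

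MT1A (ENSG00000205362, chr16:56638666-56640087, plus strand), a metallothionein known for strong induction by metals, was listed at 25 and 24 with NonS shRNA and at 40 and 50 with APC shRNA. NonS duplicates were 1 apart, and even the lower APC shRNA value was well above them. The ratio of means was 1.84, the same as for MT2A. The log2(value + 1) difference was 0.84 (standard error 0.14, adjusted p = 0.0615 in limma), which missed the threshold. With other scalings of the libraries MT1A passed it, at an adjusted p of 0.0399 with median-of-ratios size factors, 0.0291 with the upper quartile and 0.0358 with equal totals. Higher calls over all genes tested also rose with these scalings, from 233 to 310, 336 and 343.

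MT1X (ENSG00000187193, chr16:56682424-56684196, plus strand), another metal-responsive member, was listed at 6 and 7 with NonS shRNA and at 14 and 18 with APC shRNA. Both APC shRNA values were at least 7 above the higher NonS value. The ratio of means was 2.46, the highest among the tested members, and the log2(value + 1) difference was 1.17 (standard error 0.17, adjusted p = 0.0544 in limma). Like MT1A it was called under the other scalings, at an adjusted p of 0.0354, 0.0270 and 0.0291 in the same order, but unlike MT1A it could be tested only because its APC shRNA values were high. How much of its value came from AC026461.1 or MT1G was not tested.

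MT1E (ENSG00000169715, chr16:56625475-56627112, plus strand) had the highest values and the smallest difference of the tested members. It was listed at 68 and 64 with NonS shRNA and at 76 and 82 with APC shRNA. The gap of 8 between the nearest values of the conditions was little more than the 6 between the APC shRNA duplicates. The ratio of means was 1.20, and the log2(value + 1) difference was 0.26 (standard error 0.07, adjusted p = 0.122 in limma), with no call under any alternative (adjusted p from 0.0953 to 0.309).

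The next members were under the filter and are given as values. MT1F (ENSG00000198417, chr16:56657694-56660698, plus strand) was listed at 1 in each NonS library and at 5 and 8 with APC shRNA, a ratio of means of 6.50. MT1G (ENSG00000125144, chr16:56666731-56668065, minus strand), often described as silenced by promoter methylation in carcinomas, was listed at 2 and 3 with NonS shRNA and at 6 and 8 with APC shRNA, a ratio of 2.80. The log2(value + 1) difference was 1.88 for MT1F and 1.20 for MT1G, and rounding to whole numbers is large beside such values. In a fit without the filter, over all genes above 0 in any library, in which 1467 of 12799 genes were called, their adjusted p in limma was 0.0738 and 0.126, and no other member was called there either. MT1M (ENSG00000205364, chr16:56632233-56633986, plus strand) was listed at 0 in all 4 libraries, which does not show that it is silent, since the depth is unknown.

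MTF1 (ENSG00000188786, chr1:37809567-37859620, minus strand), the factor that reads the zinc level, was listed at 5, 5, 5 and 6 in NonS I, NonS II, APC shRNA I and APC shRNA II. The conditions overlapped, and the log2(value + 1) difference was 0.11, with a mean under the filter. At these values a difference of 1 is 1 step of the score, so a small change in MTF1 transcript was not detectable. Its activity depends on zinc binding and was not measured.

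The replicate and GC content are given beside these values. In APC shRNA cells replicate II was above replicate I in 6 of 6 metallothionein members above 0, while in NonS cells this held for 3 of 6. Among all genes tested the shares were 52.3% and 49.5%. The labels do not state a pairing of the replicates, and fits with a replicate term are given further on as alternatives. Beyond those fits, the part of the replicate in these values was not tested. Differences were weakly correlated with GC content across the genes tested (Spearman correlation 0.24 over 5364 genes, which are not independent replicates). The GC content of MT1A, MT1E, MT1X and MT2A was 50.5%, 53.5%, 53.7% and 53.9%, near the median of 51.9%. With the trend on GC content removed per library, the differences were 0.80 for MT1A, 0.19 for MT1E, 1.10 for MT1X and 0.77 for MT2A, and the adjusted p in limma was 0.0233, 0.225, 0.0201 and 0.0564. MT1A and MT1X were thus called after the correction, and the other 2 were not. Over all genes tested, higher calls went from 233 to 458 with this correction, and lower calls from 199 to 475.

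**Figure D3:**
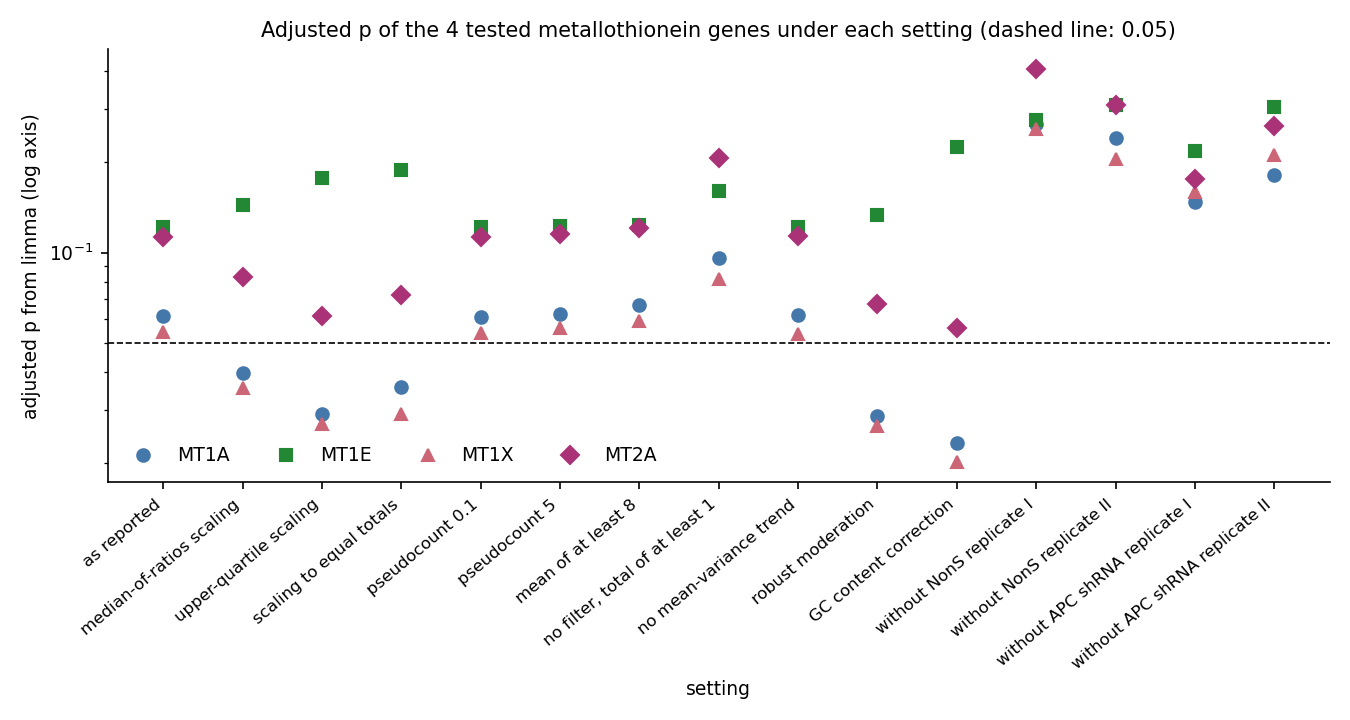
Adjusted p from limma (log axis) of MT1A, MT1E, MT1X and MT2A as reported and under the alternative settings named on the axis, with the threshold of 0.05 dashed. MT1A and MT1X fall below the line with the 3 other scalings, robust moderation and GC content correction, MT2A and MT1E stay above it in all settings shown (the fits with a replicate term, one of which calls MT2A, are not plotted), and with any 1 library left out all 4 are at 0.148 or more.

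With any 1 of the 4 libraries left out, 0 genes were called over the whole table, so those fits bear on the size of a difference and not on calls. With each library left out in turn the differences ran from 0.69 to 1.00 for MT1A, from 0.20 to 0.31 for MT1E, from 1.00 to 1.34 for MT1X and from 0.57 to 1.10 for MT2A. MT2A was lowest without APC shRNA II, its highest library. For the genes called in the lists given further on, these fits gave 0.50 to 0.58 for CCS, 0.48 to 0.53 for GSS, -1.22 to -1.02 for NQO1 and -0.51 in each for GSR.

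The metallothionein genes lie in one cluster on chromosome 16, and its other genes were mostly at or near 0. MT1B was listed at 1 in NonS I and at 0 elsewhere, and MT1H, MT3 and MT4 were at 0 in all libraries. MT3 and MT4 are the forms known from brain and from squamous epithelium. MT1IP, annotated as a pseudogene of the cluster, was listed at 15 and 19 with NonS shRNA and at 22 and 24 with APC shRNA, a log2(value + 1) difference of 0.42 (standard error 0.14, adjusted p = 0.154 in limma). Of its 240 windows of 50 bases, 0 occur in another annotated gene. MT1HL1, a metallothionein-like gene on chromosome 1, was listed at 8, 6, 8 and 11, and the conditions overlapped. Of the 13 further metallothionein genes and pseudogenes looked for, 6 were listed, 1 was tested and 0 were called. MT1L, MT1JP, MT1DP, MT1CP, MT1P1, MT1P3 and MT2P1 were not analysed here.

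Genes on either side of the cluster gave no calls. Of 8 flanking genes 4 were tested and 0 were called higher or lower, beside 4.33% and 3.7% of all genes tested. BBS2, a ciliary gene next to the cluster, was listed at 13 in all 4 libraries. OGFOD1 was at 11, 9, 9 and 9 and NUP93 at 10, 8, 8 and 8, both under the filter. NUDT21, a subunit of the pre-mRNA cleavage machinery, was at 42, 21, 24 and 17, and its NonS duplicates differed by more than the conditions did. HERPUD1, of the degradation pathway of the endoplasmic reticulum, was listed at 17 and 20 with NonS shRNA and at 13 and 14 with APC shRNA (difference -0.42, adjusted p = 0.103 in limma).

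The sequence in front of MT1X is shown because it holds matches to the element that MTF1 is known to bind. A RefSeq promoter table (GRCh38.p14) held 3 of the 8 genes, MT1X, MT2A and MTF1. The printed stretch, chr16:56682220-56682423 on the plus strand, is the 204 bases that end just before the annotated start of MT1X, and capitals mark matches to the core of the metal response element, written TGCACNC or TGCGCNC and searched on both strands.
MT1X: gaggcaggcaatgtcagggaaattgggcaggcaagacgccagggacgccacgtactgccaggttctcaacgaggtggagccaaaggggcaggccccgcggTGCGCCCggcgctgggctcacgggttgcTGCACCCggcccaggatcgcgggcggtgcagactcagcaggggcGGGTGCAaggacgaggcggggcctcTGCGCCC

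In the 250 bases before the RefSeq start, MT1X had 4 such matches, MT2A had 7 and MTF1 had 0. The MT2A window begins at 56608334, after the GENCODE v29 start of 56608199, so it lies inside the gene as annotated there. At least 1 match was found in 24.8% of 35116 promoters, at least 4 in 0.37% and at least 5 in 0.12%. Matches were also present before genes of the cluster that were listed at or near 0, with 8 for MT1H, 3 for MT1B and 3 for MT4. The core of the TCF/LEF site through which Wnt signaling acts, CTTTGAT, had 0 matches in the same windows of these 6 genes, and 2.26% of all promoters had at least 1. At that share 0 matches is the usual result for a few windows. Stretches after the start, such as the first intron where the study located the TCF7L2 site of LARGE2, were not searched. A match is a description of letters, and none of these windows was assayed for binding here.

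Zinc transporters were examined as the other side of zinc handling. Of 24 ZnT and ZIP genes 6 were tested, and 0 were called higher or lower, beside 4.33% and 3.7% of all genes tested. The median difference was -0.16. SLC30A1, a zinc exporter that MTF1 is known to induce together with the metallothioneins, was listed at 4, 3, 3 and 3, under the filter. SLC39A13, a ZIP transporter of the secretory pathway, was listed at 7 and 9 with NonS shRNA and at 12 and 14 with APC shRNA, a log2(value + 1) difference of 0.64 (standard error 0.16, adjusted p = 0.103 in limma), and it passed the filter only through its APC shRNA values. SLC39A14, a zinc and manganese importer, was listed at 19 and 20 against 13 and 16, a difference of -0.41 (adjusted p = 0.130). SLC39A7, which releases zinc from the endoplasmic reticulum, had the highest values at 84, 90, 78 and 76 (difference -0.17, adjusted p = 0.180).

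Among 17 genes of copper handling, 7 were tested, 1 was called higher and 0 were called lower, beside 4.33% and 3.7% of all genes tested, with a median difference of -0.12. CCS, the copper chaperone of superoxide dismutase, rose from 11 in each NonS library to 16 and 17 with APC shRNA, a log2(value + 1) difference of 0.54 (standard error 0.06, adjusted p = 0.0465 in limma). SOD1, the enzyme it loads, was listed at 134, 137, 120 and 130 (difference -0.12, adjusted p = 0.320). The copper exporter ATP7B was at 3 in every library. ATOX1 and SCO1, under the filter, were listed at 4, 4, 5, 5 and at 5, 5, 4, 4. Without the filter, such a step of 1 between tied duplicates can be called. SCO2 was listed at 12 and 14 with NonS shRNA and at 9 and 10 with APC shRNA (difference -0.41, adjusted p = 0.112 in limma). Both APC shRNA values lay below both NonS values in 4 of the 7 tested copper genes and above them in 1. Over all genes tested these orders were found in 27.5% and 33%.

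Metallothioneins are also counted among the oxidant-responsive genes, and the glutathione and NRF2 target genes gave calls in both directions. Of 16 genes 12 were tested, 1 was called higher and 2 were called lower, beside the same 4.33% and 3.7% of all genes tested, with a median difference of -0.21. Counts this small are given as a description. NQO1, a quinone reductase and standard NRF2 target, fell from 156 and 179 in NonS to 74 and 79 in APC shRNA libraries, a difference of -1.12 (standard error 0.10, adjusted p = 0.0441 in limma). GSR, which regenerates reduced glutathione, fell from 26 in both NonS libraries to 18 in both APC shRNA libraries (difference -0.51, adjusted p = 0.0451), and GSS, the last enzyme of glutathione synthesis, rose from 57 in both to 80 and 83 (difference 0.51, adjusted p = 0.0457). HMOX1, the heme oxygenase induced by many of the same metals as metallothioneins, was listed at 6, 7, 7 and 8, under the filter.

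Heat shock genes, which cadmium and other metals also induce, had no calls in the fit reported here. All 12 were tested, and 0 were called higher and 0 lower, beside 4.33% and 3.7% of all genes tested. The median difference was -0.03. DNAJB1, a co-chaperone of the HSP70 proteins, was listed at 32 and 31 with NonS shRNA and at 37 and 41 with APC shRNA (difference 0.30, adjusted p = 0.104 in limma), and HSPA1B, an inducible HSP70, at 128 and 134 against 142 and 158 (difference 0.19, adjusted p = 0.214). HSPA8, the constitutive HSP70 and the highest of the list, was at 660, 523, 596 and 498, with overlap between the conditions. Of 10 genes of the glucocorticoid response only NFKBIA passed the filter. It was listed at 15, 23, 15 and 26, with overlap between the conditions (adjusted p = 0.888). NR3C1, the glucocorticoid receptor, was listed at 0 in all libraries. CRISPLD2, also under the filter, was listed at 0, 0, 1 and 1, a step of 1 between tied duplicates.

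The genes whose profile over the 4 libraries lay nearest to the mean profile of the 4 tested metallothioneins were named from 5372 other genes by Euclidean distance on centred log2(value + 1). They were TM4SF1, a tetraspanin-like membrane protein, at a distance of 0.0451 and values of 67, 67, 104 and 130, then TSPAN17, a tetraspanin, at 0.0601 with 12, 13, 20 and 26. TCF7, a transcription factor of the TCF/LEF family, followed at 0.0609 with 12, 13, 20 and 24, MRPS6, of the mitochondrial ribosome, at 0.0676 with 35, 39, 58 and 73, and CHMP1B, of the ESCRT membrane-scission machinery, at 0.0736 with 29, 29, 43 and 57. None of the 5 was called, with adjusted p between 0.0593 and 0.0861 in limma. With only 4 libraries many profiles are alike, and 875 genes lay within 0.5, so the list is a description. The mean profile also includes MT1X, which passed the filter only through its APC shRNA values.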

How the data were processed

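Polyadenylated RNA of HT-29 cells was sequenced as single reads of 50 bases from a stranded library. The authors called bases with bcl2fastq 2.19.0.316, filtered reads by base quality, cut off polyA tails, aligned what was left with TopHat2 to human assembly GRCh38 (the submitters' processing notes name hg19), counted them with htseq-count against GENCODE v29, with a strand option not given in the sources used here, and ran DESeq2 1.4.1. The values deposited by the authors are whole numbers that behave as a score and not as counts: multiplied by transcript length in kb they summed to between 980841 and 984873 per library. Their annotated table of fold changes and p-values was not used. Per-sample columns not used numbered 0.

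Libraries were grouped by their labels. All 5376 genes whose mean reached 10 were fitted on log2(value + 1) in R 4.3.3 with limma 3.58.1, moderating variances along a mean-variance trend, without further scaling and with Benjamini-Hochberg adjustment. Fold changes on this scale understate the change of low genes. The design planned for scores was the one fitted. It was also run on simulated data with independent noise in each library, which held no replicate or GC content effect. Alternatives covered scaling, pseudocount, filter, moderation, GC content (loess, span 0.5), a replicate block, the study's thresholds and each library left out. Sequences and positions came from GENCODE v29 and RefSeq, and 50-base windows were compared with all annotated transcripts with Python 3.11.15 and pandas 2.3.3.

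The members and lists were chosen with earlier results of these data known. The rule for other names took further metallothionein genes, genes flanking the cluster, up to 4 examples per list by smallest p and highest mean, and the 5 nearest profiles. SLC30A1, SOD1, ATP7B, HMOX1, NR3C1, CDX1 and CDX2 were added for their roles after their values were seen. ATOX1, SCO1 and CRISPLD2 were added to show steps of 1 at low values. A flanking gene and a coding sequence are not reported here.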

Additional observations from a re-analysis of the deposited data

How the results depend on the processing

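Every difference of the tested metallothionein genes kept its direction in all settings, and 0 members were called lower in any of the 17. Most of these settings could not have reversed a direction. In all 4 genes both APC shRNA values lay above both NonS values. Leaving out a library or changing the pseudocount therefore could not reverse it. The filter, moderation and replicate block alone left the differences unchanged, so only scaling and GC content correction could have done so. The number called higher was 0 as reported, and 2 (MT1A, and MT1X, which is tested only through its APC shRNA values) with median-of-ratios, upper-quartile and equal-total scaling, robust moderation and GC content correction. Over all 5376 genes tested, the higher calls were 233 as reported and 310, 336, 343, 368 and 458 in that order. For MT1A the difference and adjusted p in limma were 0.84 and 0.0399, 0.81 and 0.0291, 0.81 and 0.0358, 0.84 and 0.0287, and 0.80 and 0.0233 in that order, and for MT1X 1.17 and 0.0354, 1.14 and 0.0270, 1.15 and 0.0291, 1.17 and 0.0267, and 1.10 and 0.0201. The prior degrees of freedom were 1.14 as reported and between 2.09 and 2.67 in these fits. The cause was not tested.

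The replicate numbers could not be taken as a pairing from the labels, although the replicate II minus I differences of the conditions had a correlation of 0.72 across 5376 genes. A replicate block called 1 member (MT1X, difference 1.17, adjusted p = 0.0468), and the replicate block together with the GC content correction gave 3, MT1A (0.80, adjusted p = 0.00463), MT1X (1.10, 0.00207) and MT2A (0.77, 0.00506). Over all genes the block gave 523 higher and 500 lower calls, and 1256 and 1301 with GC content correction.

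The 233 higher and 199 lower calls over all genes became 310 and 305, 336 and 349, and 343 and 369 with the 3 scalings, 368 and 352 with robust moderation, 458 and 475 with GC content correction, 952 and 515 with no filter, and 0 and 0 at the study's thresholds and whenever 1 library was left out, so these last settings say nothing on single members. In the limma fit as reported no adjusted p fell below 0.0423, so no gene could reach the 0.01 of the study's thresholds. With DESeq2 the study reported up- and downregulated genes at them. The median difference of the tested metallothionein genes, 0.84, was 1.01 with no filter, where MT1F and MT1G enter, and ran from 0.63 without APC shRNA II to 1.05 without APC shRNA I. Differences without each library are in the report. Among other named genes, SLC39A13, tested only through its APC shRNA values, was called with the replicate block. HERPUD1, MT1IP, SLC39A13 and SLC39A14 were called with block and GC content correction combined. In the lists, the block gave 3 lower calls among glutathione and NRF2 targets, 1 among heat shock genes and 1 among copper genes, and with the GC content correction added 5, 4 and 1, with 2 lower among zinc transporters. GC content correction alone gave 1 lower call among copper genes. With no filter, copper genes had 2 higher and 1 lower, glutathione and NRF2 targets 3 lower, and glucocorticoid genes 1 higher. Such calls can rest on 1 step of the score. Rounding of values under 10, unknown depth and sequence shared between MT1X, MT1G and AC026461.1 limit the lower members most.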
